A study of Mus musculus with 2 samples.

Results

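The Slc25a genes encode the mitochondrial carrier family, membrane transporters that exchange metabolites, nucleotides, cofactors and ions between the mitochondrial matrix and the rest of the cell. Members were taken as all protein-coding genes of the mouse annotation (GENCODE M21 on mm10, the GRCm38 assembly) whose symbol starts with Slc25a, leaving out Slc25a37 and Slc25a38. The rule found 45 members among 21911 protein-coding genes on 21 chromosomes. Chromatin accessibility around them was read from deposited ATAC-seq peaks of CFU-E, mouse progenitors that depend on erythropoietin and give rise to red cells. In ATAC-seq the transposase Tn5 inserts sequencing adapters into DNA that is not wrapped in nucleosomes, so a peak marks open chromatin. Both libraries were made from 50000 primary cells of adult male C57BL/6J mice aged 5 to 6 weeks. They are numbered as biological replicates 1 and 2, come from separate biosamples and carry the same donor identifier. No genotype or treatment other than the strain is given, and the 2 libraries form 1 group, so the design holds no contrast between conditions.

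Most SLC25 carriers sit in the inner mitochondrial membrane, where each binds its substrate at a central site that opens alternately to the matrix and to the intermembrane space. Erythroid progenitors load mitochondria with glycine, iron and other substrates for haem synthesis, divide quickly, and later lose their mitochondria altogether. The best known erythroid carriers, which import iron and glycine, are the genes left out by the rule, and the genes below are the rest of the family, from ATP exchange to vitamin transport. An open promoter does not measure transcription, and no RNA was measured in these libraries.

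Overlapping or touching peak records were merged into regions. A gene had a promoter region when a region lay within 1 kb of any of its annotated transcription starts. Of the 45 members, 33 had one in the series list, which was made from both libraries and thresholded on the irreproducible discovery rate (IDR, a measure of how well peaks repeat between peak sets). This is 73.3% (exact Clopper-Pearson 95% interval 58.1 to 85.4%), beside 45.8% of all protein-coding genes (10037 of 21911). The intervals cover counting error over genes only, and no test was made of the family against other genes because its members were chosen with earlier results known. Members with such a region are called open below, and the others closed. These names stand for a call in this list and do not order promoters by accessibility. Slc25a15, called closed, had a promoter region of fold 4.78 in a looser peak list of the series. So did Slc25a27, Slc25a43 and Slc25a48, at lower fold. Slc25a45, called open, had fold 3.31. The 1 kb limit decided little. Among members with a promoter region, those whose nearest region lay farthest from a start were Slc25a23 at 271 bp and Slc25a45 at 230 bp. The member nearest to the limit from outside was Slc25a43, at 2055 bp.

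The sequences below are shown because they come from pairs of close paralogues of which 1 had a promoter region and the other had none. Each run is 201 bases of mm10, printed on the gene's own strand and centred on the strongest summit of the promoter region, or, for the member without a region, on its annotated protein-coding start. Of the 4 further promoters, Slc25a14 and Slc25a20 had the highest fold enrichment, and Slc25a29 and Slc25a35 hold repeated CCAAT boxes. Capitals mark matches, on either strand, to the element bound by NF-Y (CCAAT, called the CCAAT box below), to that of SP factors (CCCGCCC), to those of ETS (CCGGAAGT) and KLF factors (CCACACCC), to CTCF, and to the core of GATA factors, which is here either AGATAA or else the variant TGATAA. NRF1 (GCATGCGC) and YY1 (AAGATGGCG) were searched as well and matched nowhere in these runs.
Slc25a5 promoter, chrX:36795462-36795662, plus strand: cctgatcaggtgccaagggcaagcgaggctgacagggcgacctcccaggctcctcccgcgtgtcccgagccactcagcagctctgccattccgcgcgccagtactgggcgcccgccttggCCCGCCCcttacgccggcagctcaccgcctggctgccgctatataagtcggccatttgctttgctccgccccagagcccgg
Slc25a4 start, chr8:46211184-46211384, minus strand: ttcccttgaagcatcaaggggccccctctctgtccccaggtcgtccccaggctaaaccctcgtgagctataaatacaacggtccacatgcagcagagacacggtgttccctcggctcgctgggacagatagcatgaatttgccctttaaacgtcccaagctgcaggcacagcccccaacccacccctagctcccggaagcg
Slc25a12 promoter, chr2:71367624-71367824, minus strand: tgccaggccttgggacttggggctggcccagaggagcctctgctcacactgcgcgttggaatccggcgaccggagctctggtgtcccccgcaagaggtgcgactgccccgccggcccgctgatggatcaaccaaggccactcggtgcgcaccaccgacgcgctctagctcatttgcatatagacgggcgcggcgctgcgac
Slc25a13 start, chr6:6217073-6217273, minus strand: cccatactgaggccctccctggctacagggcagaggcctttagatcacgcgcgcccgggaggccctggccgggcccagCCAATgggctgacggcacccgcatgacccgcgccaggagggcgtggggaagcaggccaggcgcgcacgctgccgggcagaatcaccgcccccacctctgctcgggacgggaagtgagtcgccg
Slc25a14 promoter, chrX:48623617-48623817, plus strand: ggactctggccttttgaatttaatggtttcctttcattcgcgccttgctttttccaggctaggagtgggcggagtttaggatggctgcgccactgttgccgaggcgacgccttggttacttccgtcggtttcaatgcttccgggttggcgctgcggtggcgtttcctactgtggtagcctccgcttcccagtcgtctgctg
Slc25a20 promoter, chr9:108661987-108662187, plus strand: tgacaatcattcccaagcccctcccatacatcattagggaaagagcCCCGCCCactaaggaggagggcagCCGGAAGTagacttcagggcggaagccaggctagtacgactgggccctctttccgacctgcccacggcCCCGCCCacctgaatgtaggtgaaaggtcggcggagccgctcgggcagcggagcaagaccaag
Slc25a29 promoter, chr12:108835811-108836011, minus strand: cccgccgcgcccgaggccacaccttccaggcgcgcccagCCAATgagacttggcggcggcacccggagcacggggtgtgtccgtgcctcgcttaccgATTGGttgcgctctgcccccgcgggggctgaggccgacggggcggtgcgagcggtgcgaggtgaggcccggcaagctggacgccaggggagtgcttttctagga
Slc25a35 promoter, chr11:68967970-68968170, plus strand: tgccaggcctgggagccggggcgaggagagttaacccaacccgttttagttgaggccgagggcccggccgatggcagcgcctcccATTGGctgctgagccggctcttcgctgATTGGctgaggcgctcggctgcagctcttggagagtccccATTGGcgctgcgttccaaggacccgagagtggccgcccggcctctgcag

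In these runs the open Slc25a5 promoter held 1 SP match, the closed Slc25a4 start held no match, and the open Slc25a12 promoter also held none. The closed Slc25a13 start held 1 CCAAT box. The only match thus lay in the open member of 1 pair and in the closed member of the other. Open members were centred on a summit and closed ones on a start, and no relation of letters to openness was tested. Slc25a35 carried 3 CCAAT boxes and Slc25a29 carried 2. Slc25a20 carried 2 SP matches and 1 ETS match. A match describes letters and does not measure binding.

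Strength was read as the fold enrichment of the strongest promoter record over local background, a ratio the authors computed, and was used to rank genes within a list. The median over the 33 members was 10.7 in the series list, and the median over all genes with a promoter region was also 10.7. In replicate 1's own list both medians were 10.4, and in replicate 2's own list both were again 10.4. The median member lay at percentile 50.2 of all genes with a promoter region by fold, and at percentile 49.2 when ranked by −log10 p. The share of members with a promoter region thus lay above that of all genes, whereas the median strength of those regions equalled it. The members spread from fold 3.31 to 16.8, with 14 of 33 above the 75th percentile and 6 of 33 above the 90th, and with no member between 11.7 and 13.1.

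**Figure D1:**
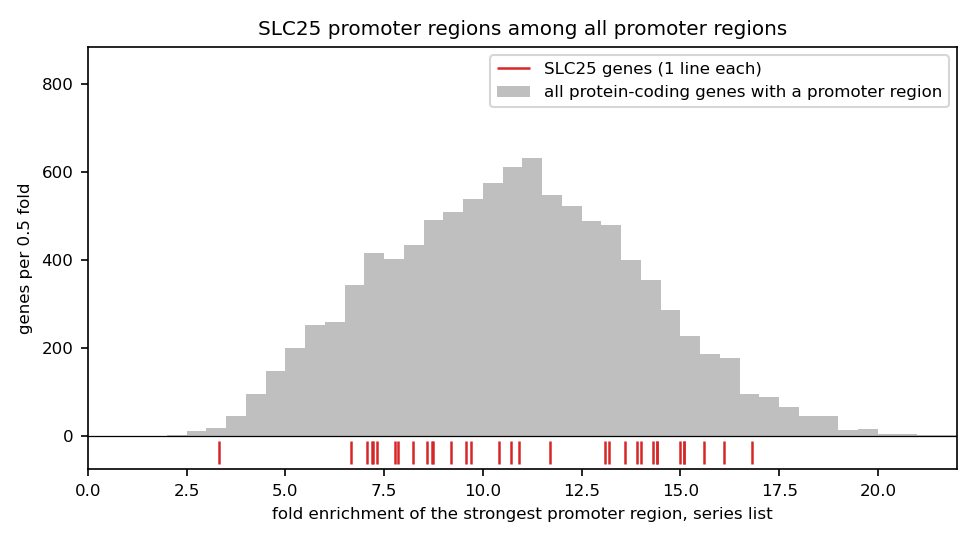
Histogram of the fold enrichment of the strongest promoter region (x axis, ratio in the series list) over the 10037 genes with such a region (grey bars, genes per 0.5 fold), with the 33 SLC25 members as red lines beneath. The members range from 3.31 to 16.8 around the same median of 10.7, and none lies between 11.7 and 13.1.

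Each replicate's own list gave nearly the same picture. Replicate 1's list held a promoter region for 32 members (71.1%, exact interval 55.7 to 83.6%), beside 43.5% of all genes, and replicate 2's list held one for 32 members, beside 42.6% of all genes. The member that differed from the series list was Slc25a45 in both cases. Its region, chr19:5878092-5878398, had fold 3.31 and −log10 p 14.5, at percentile 0.179 of all genes with a promoter region, and it was also absent from the conservative list. Between the replicates, the fold was higher in replicate 1 for 21 members and higher in replicate 2 for 11, and it was higher in replicate 1 for 52.1% of genes with a promoter region in both lists. The median absolute log2 ratio of the fold values was 0.06 over members and 0.08 over genes, although the lists are on separate scales. Slc25a53 had the largest ratio, with fold 12.8 in replicate 1 and 10.2 in replicate 2, a log2 ratio of 0.32.

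**Figure D2:**
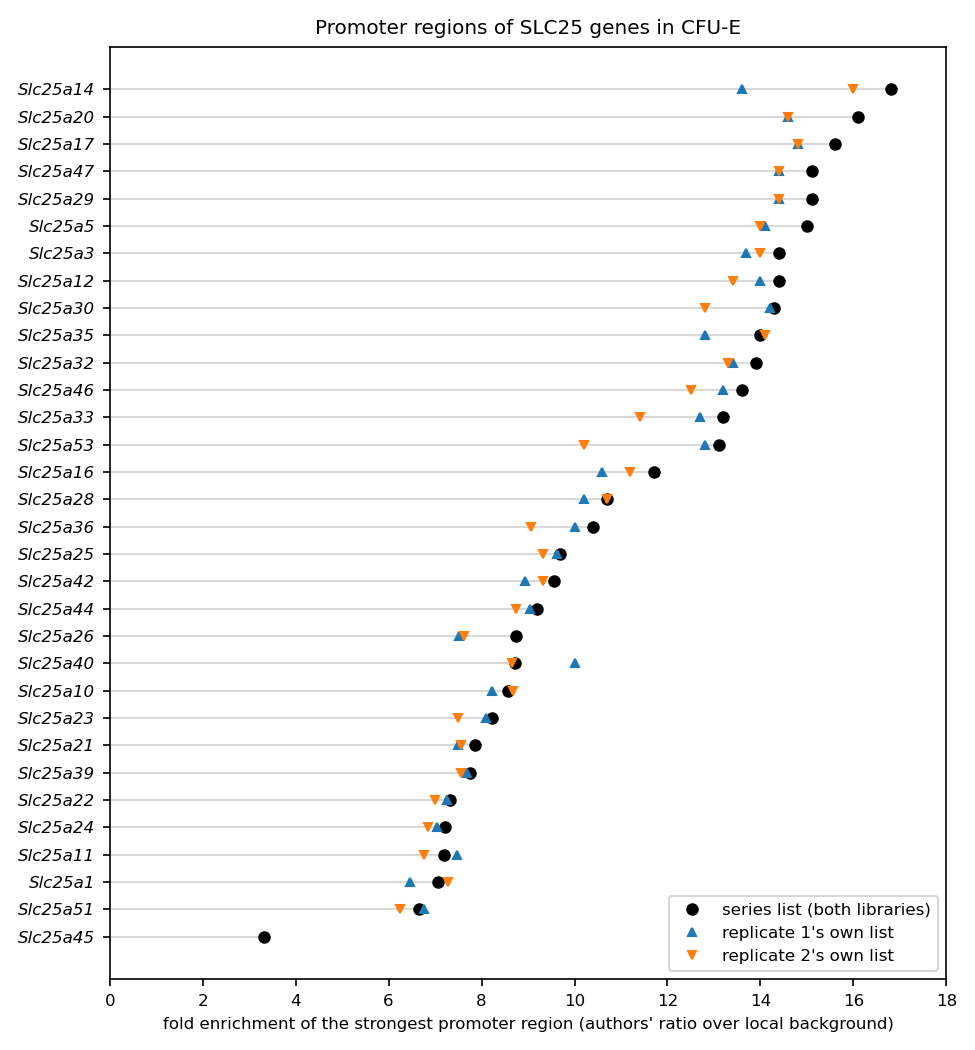
Fold enrichment (x axis, ratio over local background) of the strongest promoter region of 32 of the 33 SLC25 members that have one (y axis), in the series list (black circles) and in the own lists of replicate 1 (blue triangles up) and replicate 2 (orange triangles down). Slc25a14 is highest at 16.8, Slc25a53 shows the widest gap between replicates (12.8 and 10.2), and Slc25a45 at 3.31 has no point in either replicate.

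The carriers that supply ATP exchange were split. Slc25a5, the adenine nucleotide translocase of proliferating cells, had a promoter region (chrX:36795374-36796623) of fold 15 in the series list, with 14.1 in replicate 1 and 14 in replicate 2. Slc25a3, which imports phosphate for ATP synthesis, had fold 14.4 in the series list, with 13.7 in replicate 1 and 14 in replicate 2 (chr10:91123231-91124705). Slc25a4, the translocase known from heart and skeletal muscle, and Slc25a31, known from the germ line, had a promoter region in no list, the less strict overlap lists included. The region nearest to a start lay 30660 bp away for Slc25a4 and 35828 bp away for Slc25a31.

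The ATP-Mg/phosphate carriers, which adjust the adenine nucleotide pool of the matrix and in their long forms are gated by calcium, had a promoter region in 3 of 4 cases. Slc25a25 had fold 9.69 in the series list, with 9.63 in replicate 1 and 9.33 in replicate 2. For Slc25a23 the values were 8.22, 8.09 and 7.50 in the same order, and for Slc25a24 they were 7.22, 7.04 and 6.85. All 3 lay below the family median fold in each list (10.7, 10.4 and 10.4). By −log10 p in the series list, however, Slc25a25 stood at 210, above the family median of 127 and at percentile 92.3 of all genes with a promoter region. Slc25a41, a short paralogue without the calcium-binding domain, had none in any list, with the nearest region 9207 bp away.

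Cofactor and nucleotide carriers were the largest role group, and all 9 had a promoter region in the series list and in each replicate. Slc25a17, a carrier of coenzyme A and related cofactors in the peroxisomal membrane, had the highest fold of them, at 15.6 in the series list and 14.8 in each replicate (chr15:81360218-81361399). It stood at percentile 92.9 by fold and 95.6 by −log10 p, where Slc25a42 was slightly higher, at 95.8. Slc25a32, linked to folate and flavin transport, had fold 13.9 in the series list, with 13.4 in replicate 1 and 13.3 in replicate 2.

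The pyrimidine nucleotide carriers Slc25a33 and Slc25a36 were both open. Slc25a33 had fold 13.2 in the series list, with 12.7 in replicate 1 and 11.4 in replicate 2. Slc25a36 had a lower fold in every list, at 10.4, 10.0 and 9.06. Of the coenzyme A pair, Slc25a16 had fold 11.7, 10.6 and 11.2 in the series, replicate 1 and replicate 2 lists, and Slc25a42 had 9.56, 8.93 and 9.32. Slc25a26, which carries S-adenosylmethionine, had fold 8.74 in the series list, and Slc25a51, which carries NAD, had 6.65. The group thus ran from 6.65 to 15.6 and spanned most of the family range.

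Amino acid carriers were open in 4 of 8 cases, and 2 of the 4 closed ones are close paralogues of open ones. Slc25a12, an aspartate/glutamate carrier of the malate-aspartate shuttle, had a region (chr2:71367086-71367988) of fold 14.4 in the series list, with 14 in replicate 1 and 13.4 in replicate 2. Its paralogue Slc25a13, the aspartate/glutamate carrier best known from liver, had none in any list, and its nearest region lay 360565 bp away. The glutamate carrier Slc25a22 had fold 7.31, 7.26 and 6.99 in the series, replicate 1 and replicate 2 lists. Slc25a18, the other glutamate carrier, had none in any list (36718 bp to the nearest region).

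Of the ornithine carriers, Slc25a2 had a promoter region in no list. Slc25a15, the ornithine carrier of the urea cycle, had none in the IDR-thresholded lists, but the overlap list of the series held one of fold 4.78, with 4.69 in replicate 1's overlap list and 4.58 in replicate 2's. Slc25a29, a carrier of basic amino acids, had fold 15.1 in the series list and 14.4 in each replicate (chr12:108835415-108836537). Slc25a44, which carries branched-chain amino acids, had fold 9.19 in the series list, with 9.04 in replicate 1 and 8.74 in replicate 2.

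All 5 carboxylate and carnitine carriers had a promoter region in the series list and in both replicates. Slc25a20, which brings acylcarnitines in for fatty acid oxidation, was the highest of them by fold, at 16.1 in the series list and 14.6 in each replicate (chr9:108661758-108662516), the second highest fold of the family in the series list. By −log10 p it was not (127 in the series list, percentile 49.2), and Slc25a10 lay above it (134, percentile 53.5). The other 4 lay below the family median by fold. They were the dicarboxylate carrier Slc25a10 (8.57, 8.23 and 8.68 in the series, replicate 1 and replicate 2 lists), the oxodicarboxylate carrier Slc25a21 (7.85, 7.50 and 7.56), the oxoglutarate carrier Slc25a11 (7.20, 7.46 and 6.76) and the citrate carrier Slc25a1 (7.06, 6.46 and 7.27). By fold, Slc25a20 lay above these 4 in each of the 3 lists.

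The uncoupling-protein-like carriers included the highest promoter fold of the family. Slc25a14 had fold 16.8 in the series list and 16.0 in replicate 2, but 13.6 in replicate 1, where it ranked 9 among the members (chrX:48623190-48624001). By −log10 p it was not high in the series list (99.6, percentile 33.4), so its place at the top depends on the measure. Slc25a30 had fold 14.3, 14.2 and 12.8 in the series, replicate 1 and replicate 2 lists. Slc25a27, known from brain, had a region only in overlap lists, of fold 3.57 for the series, 3.30 for replicate 1 and 3.66 for replicate 2.

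Iron and glutathione carriers were all open. Slc25a28, the iron importer mitoferrin-2, had fold 10.7 in the series list, with 10.2 in replicate 1 and 10.7 in replicate 2. The glutathione carriers Slc25a39 and Slc25a40 had a lower fold, at 7.76 and 8.72 in the series list. Their values were 7.69 and 10.0 in replicate 1, and 7.55 and 8.65 in replicate 2. The series value of Slc25a39 belongs to a region upstream of all its annotated starts (chr11:102408220-102408859). A region over several of its protein-coding starts (chr11:102406941-102407891) had fold 4.0 in the series list. Slc25a46, an outer-membrane member that acts in mitochondrial shape rather than in transport, had fold 13.6 in the series list, with 13.2 in replicate 1 and 12.5 in replicate 2.

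Members of less settled function had a promoter region in 4 of 8 cases. Slc25a35 had fold 14 in the series list, with 12.8 in replicate 1 and 14.1 in replicate 2, while its paralogue Slc25a34 had none in any list (31943 bp to the nearest region). Slc25a53 and Slc25a45 are given above. Slc25a47, known from liver, counted through the same region as Slc25a29. That region overlaps starts of non-coding processed transcripts of Slc25a47, at positions 108836046 and 108836082 of chromosome 12. A further such start, at 108837064, lies within 1 kb of it. The protein-coding starts of Slc25a47, at 108851129 and 108851139, had no region within 1 kb. Slc25a48 and Slc25a43 had regions in the overlap list of the series (fold 3.39 and 3.96) and in that of replicate 2 (3.66 and 3.59), but not in that of replicate 1. Slc25a54 had none in any list.

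The overlap list of the series raised the count of members with a promoter region to 37 (82.2%), beside 52.1% of all genes. The 4 members added were Slc25a15, Slc25a27, Slc25a43 and Slc25a48, all at fold 4.78 or lower, and the remaining 8 of the 12 were absent from every list. In the series list, Slc25a17, Slc25a29 and Slc25a47 lay above the 90th percentile of all genes by both fold and −log10 p, and the last 2 share a region. The share of all genes above both limits was not counted, so neither an excess nor a lack is read from this.

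**Figure D3:**
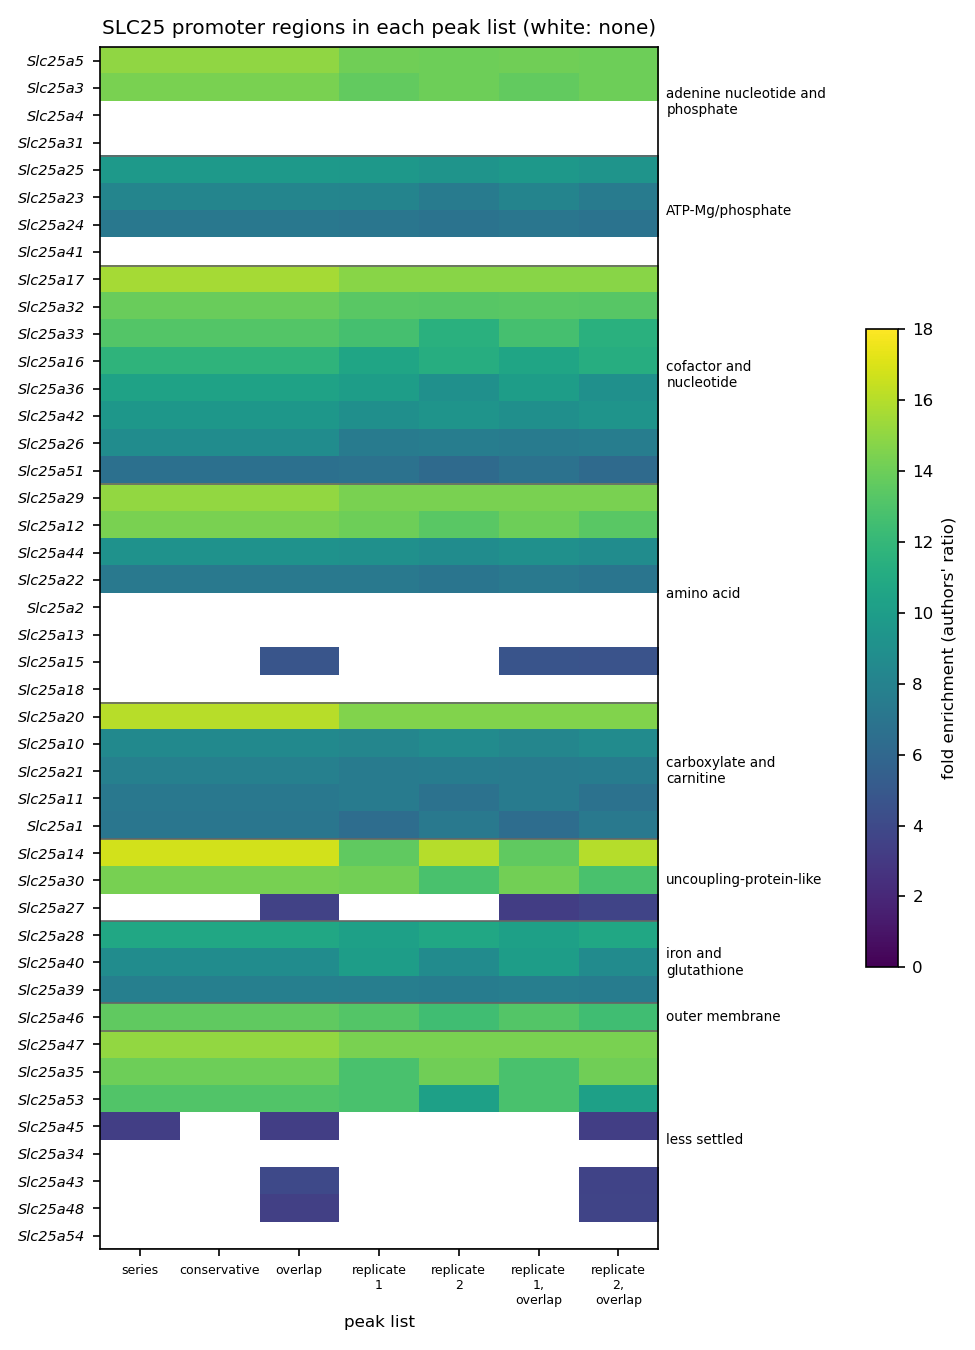
Fold enrichment (colour, ratio over local background) of the strongest promoter region of 44 of the 45 SLC25 members (rows, grouped by role) in 7 peak lists (columns), with white for no region. The 8 cofactor and nucleotide carriers drawn are filled in every list, 4 of 8 amino acid carriers are white in the series list, and 8 members are white throughout.

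CpG content went with these calls in the family as in the genome. The CpG ratio is the observed number of CG dinucleotides over that expected from the base composition, here the highest over a gene's starts in windows from 250 bases before to 50 after. With a ratio of 0.6 or more, 29 of 34 members had a promoter region (85.3%), beside 71.5% of the 12411 such genes. The 5 CpG-rich members without one were Slc25a4, Slc25a13, Slc25a15, Slc25a27 and Slc25a31. Under 0.6, 4 of 11 members had a promoter region (36.4%), beside 12.3% of 9500 genes, and these were Slc25a20, Slc25a21, Slc25a24 and Slc25a45. Of these, Slc25a20 had a ratio of 0.41 and the second highest fold of the family, but percentile 49.2 by −log10 p. Rounded ratios close to the cutoff were 0.59 for Slc25a2, Slc25a24 and Slc25a48, and 0.60 for Slc25a15, Slc25a43 and Slc25a44. The class of these members, and so the member shares, depends on the exact cutoff. The share of CpG-rich genes was 34 of 45 members, against 12411 of 21911 genes. What part base composition has in the higher share of open members was not tested.

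Consensus letters were counted within 100 bp of the strongest summit in the 32 distinct promoter regions of the members and in the 8826 of all genes. A CCAAT box occurred in 17 member regions (53.1%), beside 36.0% of all, and an SP match in 15 (46.9%), beside 46.4%. GATA letters, the core bound by the erythroid factor GATA1, occurred in 5 (15.6%), beside 6.80%, at Slc25a21, Slc25a22, Slc25a23, Slc25a44 and Slc25a51. The summits at Slc25a22 and Slc25a44 lay within 100 bp of a start, and those at Slc25a21, Slc25a23 and Slc25a51 lay farther upstream. No excess of GATA letters is read from so few regions. ETS matches were found in 3 (9.38%), beside 8.87%, and a KLF match in 1 (3.12%), beside 3.37%. NRF1, YY1 and CTCF letters were found in 0 of 32 regions, beside 5.23%, 3.39% and 1.84% of all promoter regions. An approximate 95% upper limit for each, taken as 3 counts in 32 regions, is a share of 9.38%. A lower share of these letters than in all promoters was therefore not detectable with so few regions.

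**Figure D4:**
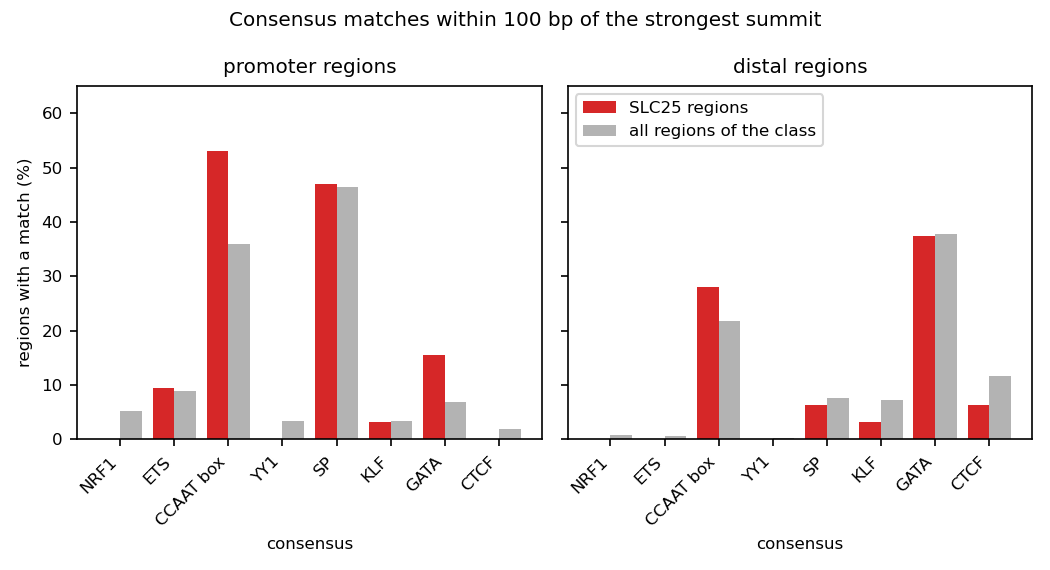
Share of regions (y axis, %) with a consensus match within 100 bp of the strongest summit, for SLC25 regions (red, 32 promoter and 32 distal regions) and all regions of the class (grey). CCAAT boxes lead in SLC25 promoters (53.1% beside 36.0%), and GATA letters lead in distal regions at nearly equal shares (37.5% beside 37.7%).

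Distal regions were those within 1 kb of no protein-coding start, each given to the gene with the nearest start up to 100 kb away. The family had 32 distal regions over 16 of 45 members (35.6%), beside 26.5% of all genes with 1 or more. The mean was 0.711 per member and 0.549 per gene, and both medians were 0. Members' domains, the sequence nearest to their starts, had a median length of 35.9 kb, shorter than the 45.1 kb over all genes. Among members with a promoter region, 14 of 33 had a distal region, beside 39.9% of all genes with a promoter region. Of the 32 regions, 18 were in both replicates' lists (56.2%, beside 50.8% of all distal regions), 5 were in 1 replicate's list, and 9 (28.1%, beside 28.9%) were in neither replicate's list. Their median fold was 6.5, beside 6.54 over all distal regions.

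The distal sequences shown next belong to the strongest region of the family, to the region of a member with a closed promoter, and to 3 regions that carry GATA letters. Each run is 201 bases of mm10 around the strongest summit, on the strand of the gene, with capitals as above. In the Slc25a42 run a GATA match and a CCAAT box overlap.
Slc25a5 distal, chrX:36807749-36807949, plus strand: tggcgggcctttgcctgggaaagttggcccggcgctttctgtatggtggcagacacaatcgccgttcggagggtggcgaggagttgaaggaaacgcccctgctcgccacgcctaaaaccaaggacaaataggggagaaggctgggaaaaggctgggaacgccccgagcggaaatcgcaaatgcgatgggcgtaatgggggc
Slc25a4 distal, chr8:46241986-46242186, minus strand: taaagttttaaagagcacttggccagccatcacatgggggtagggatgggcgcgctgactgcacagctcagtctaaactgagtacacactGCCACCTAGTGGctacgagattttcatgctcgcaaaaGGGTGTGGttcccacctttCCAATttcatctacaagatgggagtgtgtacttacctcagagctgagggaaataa
Slc25a12 distal, chr2:71374952-71375152, minus strand: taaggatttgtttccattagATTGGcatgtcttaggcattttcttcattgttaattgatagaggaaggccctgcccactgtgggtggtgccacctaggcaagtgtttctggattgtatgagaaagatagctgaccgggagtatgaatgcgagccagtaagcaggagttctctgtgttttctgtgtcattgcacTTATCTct
Slc25a25 distal, chr2:32486225-32486425, minus strand: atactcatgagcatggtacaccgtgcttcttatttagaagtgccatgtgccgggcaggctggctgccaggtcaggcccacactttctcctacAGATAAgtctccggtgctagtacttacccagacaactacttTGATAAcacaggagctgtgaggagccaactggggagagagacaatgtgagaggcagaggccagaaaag
Slc25a42 distal, chr8:70201504-70201704, minus strand: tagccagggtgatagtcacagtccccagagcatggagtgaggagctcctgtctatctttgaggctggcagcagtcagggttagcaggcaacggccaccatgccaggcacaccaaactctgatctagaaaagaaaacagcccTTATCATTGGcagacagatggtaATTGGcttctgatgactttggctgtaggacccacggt

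Slc25a5 had the strongest distal region, chrX:36807462-36808367, 10.6 kb downstream of its nearest annotated start. That start, at position 36797279, belongs to a transcript with a retained intron, and the protein-coding start lies farther away, at 36795651. The region had fold 12.9 in the series list, with 12.3 in replicate 1 and 11.6 in replicate 2. It lay at percentile 95.4 of all distal regions, and its run above holds no match. A weaker region of Slc25a5, 23.1 kb downstream of the same nearest start with fold 6.07, was in neither replicate's list. Slc25a4, closed at its promoter, had 1 distal region 30.9 kb upstream (chr8:46241944-46242343) of fold 9.90, with 8.80 in replicate 1 and 8.58 in replicate 2. Its run holds a CTCF, a KLF and a CCAAT match. Slc25a43, the other member with a distal but no promoter region, had 1 of fold 6.32 at 2.18 kb upstream of its start, found in replicate 2's list (5.92) and not in replicate 1's.

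Slc25a21 had the most distal regions, 5 in the series list, 3 in replicate 1's and 4 in replicate 2's, in a domain of 473 kb against a family median of 35.9 kb. The strongest of them, chr12:57211313-57212315, lay 14.3 kb upstream with fold 10.1, and the other 4 lay in introns of the gene. With its 5 regions it belongs to the 2.28% of all genes that have 5 or more.

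Slc25a1, Slc25a10 and Slc25a25 had 3 distal regions each, a number reached by 6.45% of all genes. For Slc25a1 all 3 were in both replicates' lists. They were chr16:17921570-17922576 in an exon of AA914427 (fold 12.2, with 12.1 in replicate 1 and 10.9 in replicate 2), chr16:17938886-17939189 (11.2, 10.3 and 10.8) and chr16:17939278-17939827 (8.15, 6.82 and 8.54). Each of them had a higher fold in the series list than the gene's own promoter region, at 7.06. The regions of Slc25a10 were weaker, at 6.31, 3.99 and 3.36 in the series list. Those of Slc25a25 formed a cluster 35 to 37.4 kb upstream, with fold 6.01, 9.05 and 4.04 from the nearest to the farthest, and the last was in neither replicate's list.

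Slc25a12 had 2 upstream regions, of which chr2:71374557-71375194 (7.13 kb upstream, fold 10.2, with 8.67 in replicate 1 and 9.47 in replicate 2) was the stronger. Slc25a42 had 2 intronic ones, led by chr8:70201203-70201936 (fold 9.83, with 9.59 and 9.50). Members with 2 regions were also Slc25a24, Slc25a33 and Slc25a51, and those with 1 were Slc25a17, Slc25a30, Slc25a39 and Slc25a44. Of the 14 members with both kinds of region, 4 had a distal region stronger than any promoter region by fold (Slc25a1, Slc25a21, Slc25a42 and Slc25a51), or 28.6%, beside 34.1% of 4001 such genes.

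**Figure D5:**
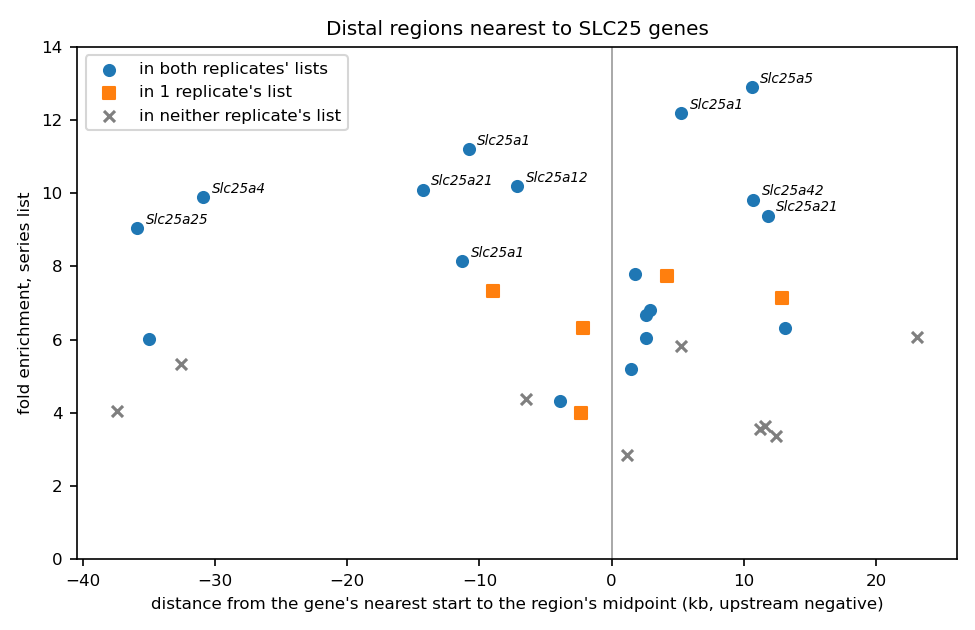
The 32 distal regions of SLC25 genes by distance from the nearest start (x axis, kb, upstream negative) and fold enrichment in the series list (y axis, ratio), with symbols for presence in both (circles), 1 (squares) or neither (crosses) of the replicates' own lists. The 11 strongest regions, from 12.9 at Slc25a5 to 7.79 at Slc25a51, are in both replicates' lists, and the 9 crosses lie at 6.07 or lower.

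Within 100 bp of the distal summits, GATA letters occurred in 12 of 32 member regions (37.5%), beside 37.7% of 12035 distal regions. CCAAT boxes occurred in 9 (28.1%), beside 21.7%, SP matches in 2 (6.25%), beside 7.69%, and a KLF match in 1 (3.12%), beside 7.21%. CTCF letters occurred in 2 (6.25%), beside 11.7%, at the regions of Slc25a4 and Slc25a33. In the family and over all regions alike, the share with GATA letters was higher, and those with SP and CCAAT matches were lower, at distal than at promoter regions.

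Other transporters and channels of mitochondrial membranes were set beside the family. Of 25 such genes, 23 had a promoter region in the series list (92.0%), beside 45.8% of all genes, with a median fold of 11.4. Those without were the uncoupling proteins Ucp1, of brown fat, and Ucp3, of muscle. The strongest was Sfxn4, a sideroflexin, at 16.5 in the series list, with 15.9 in replicate 1 and 15.8 in replicate 2. The serine transporter Sfxn1 differed between replicates, with a region of fold 5.59 in replicate 1's list and none in replicate 2's.

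The labels were checked against marker promoters. All 9 erythroid markers had a promoter region in the series list, Alas2 in neither replicate's list. Their median fold was 6.98, below the 10.7 over all genes with a promoter region. A promoter region was found for 0 of 5 T and NK, 0 of 4 B, 0 of 5 granulocyte and monocyte, 0 of 3 macrophage and 0 of 3 hepatocyte markers. Of 4 megakaryocyte markers Itga2b (fold 8.94) and Gp9 (3.30, in neither replicate's list) had one. The series list held 50003 records in 24394 regions, replicate 1's 37362 records in 18685 regions and replicate 2's 34239 records in 17854 regions, and the read depth is unknown from peak lists. Between matched records of the true replicates, the log2 ratio of −log10 p had a median of 0.12, against 0.0 between the authors' pseudoreplicates. Its median absolute deviation was 0.30, against 0.40 between the pseudoreplicates. The libraries thus scattered less around their median than the pseudoreplicates, but with an offset that the pseudoreplicates lacked. The libraries were counted as 1 sample, so values carry no SD.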

How the data were processed

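Peak lists of 2 ATAC-seq libraries of mouse CFU-E were used as deposited, on mm10 per the labels. Lists for each replicate alone and for both, thresholded on the IDR by the authors, are named in the deposited listing. How reads were aligned, peaks called, and Tn5 offsets and duplicates treated is not given in the sources used here. A record's fold enrichment is the authors' ratio over local background, its p-value was deposited as −log10, and its score, also set by the authors, entered no result. Fold and −log10 p served to rank within a list and to compare the replicates.

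Overlapping or touching records were merged, and regions were joined to GENCODE M21 genes, collapsed by symbol, with a minimum overlap of 1 bp. Sequences came from GRCm38.p6. Python 3.11.15, pandas 2.3.3, numpy 2.4.6 and scipy 1.17.1 were used, and the assignment of regions was tested on simulated data. Members and gene lists were chosen with earlier results of these data known. All members were counted, 1 is not reported here by name, and the others were named, with full values for the 8 strongest promoters, the 5 members with most distal regions, members without a promoter region, members whose call differed between lists, and paralogous groups. Alternatives were other promoter windows, lists, thresholds, starts, domains and motif windows, and each replicate alone. An archived list and each replicate's ranked list were not used here.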

Additional observations from a re-analysis of the deposited data

How the results depend on the processing

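No paired analysis was possible because the 2 libraries form 1 group. The count of 33 members with a promoter region became 32 in the conservative list, 37 in the overlap list and 27 with the upper 50% of regions by fold, which drops Slc25a1, Slc25a11, Slc25a22, Slc25a24, Slc25a45 and Slc25a51 (60.0% of members beside 37.4% of genes). It was 33 with windows of 500 bp or 2 kb, and 32 with protein-coding starts of the basic set alone, an alternative chosen after seeing the data, which drops Slc25a47. The median fold of 10.7 became 10.8 in the conservative and 9.69 in the overlap list, and 10.4 to 10.4 with either replicate left out. The median percentile of 50.2 became 50 with 500 bp windows, 51.2 in the conservative list, 45.6 in the overlap list, 49.2 by −log10 p and 49.8 to 49.9 with a replicate left out. The 32 distal regions (mean 0.711 per member, beside 0.549 per gene) became 65 in the overlap list (1.44 beside 1.15). With the upper 50% of regions by fold they became 12 (0.267 beside 0.199). When regions went to the nearest start of any annotated gene, there were 22 (0.489 beside 0.346). There were 19 without replicate 2 (0.422 beside 0.358) and 22 without replicate 1 (0.489 beside 0.331). Within 50 bp of promoter summits, CCAAT boxes were in 11 of 32 member regions (34.4% beside 27.8%) and SP matches in 9 (28.1% beside 32.7%). GATA letters were in 3 (9.38% beside 4.33%), and these counts fell since the window is shorter. For the other alternatives of these results the cause of the change was not tested. Depth behind a fold is unknown, so a weak region missing from 1 list cannot be told apart from a shallow library.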

Other observations

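Of the 33 members with a promoter region, 8 had more than 1 (24.2%, beside 25.6% of genes with a promoter region). At Slc25a22, Slc25a25 and Slc25a30 the regions lay at or near separate groups of starts. At Slc25a11, Slc25a24, Slc25a39, Slc25a40 and Slc25a42 both regions had their summit nearest to the same group of starts. Slc25a25 had 4 regions. Its strongest, chr2:32451806-32452498, had fold 9.69, and an internal protein-coding start had a region of its own, chr2:32423876-32424306, with fold 6.73, found in replicate 2's list and not in replicate 1's. Slc25a22 had regions at a downstream group of starts (chr7:141435038-141435543, fold 7.31) and at the upstream protein-coding starts (chr7:141437125-141437985, fold 6.44), both found in each replicate. At Slc25a30 the main region (chr14:75786375-75787482, fold 14.3) lay at the protein-coding starts, and a weaker one (chr14:75773064-75773970, fold 8.0) lay near the start of a processed transcript.

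The strongest promoter region also lay within 1 kb of a start of another protein-coding gene for 6 of 33 members (18.2%), beside 25.1% of 10037 genes. The partners were Rnf167 for Slc25a11, Dcaf13 for Slc25a32, Dbf4, which activates a kinase of DNA replication, for Slc25a40, and B930094E09Rik for Slc25a46, and Slc25a29 and Slc25a47 shared theirs with each other. All 6 were shared with a gene on the opposite strand (18.2%, beside 22.3%). The members' strongest promoter regions had a median width of 998 bp, beside 942 bp over all genes, and the summit lay within 100 bp of a start in 21 of 33 (63.6%, beside 67.4%).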
